A study of Sus scrofa domesticus with 4 samples.

Results

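The 5 genes described here, FOS, JUN, NR4A3, KLF2 and BTG2, encode immediate early regulators of transcription, and their transcripts were measured in pig anterior pituitary by 10 of the 43603 probes of a 2-colour array. The members were found by the RefSeq accession of the probe, matched without its version to the NCBI table of pig genes, which named 5578 probes of 2459 genes. FOS and JUN each had 1 probe, KLF2 and BTG2 had 2 probes each and NR4A3 had 4. The genes were chosen by their ratios between pregnant and cyclic gilts on these same arrays, so those ratios are given as a description, without a test.

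Immediate early genes are transcribed soon after a cell receives a hormone or growth factor signal, without the need for new protein synthesis. FOS and JUN are leucine zipper proteins that pair to form the transcription factor AP-1. NR4A3 is an orphan nuclear receptor, KLF2 is a zinc finger factor known in mouse and human for its induction by blood flow in endothelium, and BTG2 is an antiproliferative protein that promotes the shortening of mRNA tails. In rodent pituitary cells, releasing hormones acting through calcium, cyclic AMP and MAP kinases induce several genes of this class.

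Anterior pituitaries came from 4 mature gilts (young female pigs) killed on days 12 to 13 of early pregnancy after natural mating, with conceptuses present, and from 4 killed on days 12 to 13 of the estrous cycle. The animals weighed about 110 kg and came from crosses of Large White with Polish Landrace, and the labels name 8 individuals. On each of the 4 arrays a pregnant gilt was hybridised against a cyclic one, which gave 4 separate pairs. By the sample labels, the RNA of the pregnant gilt was in Cy3 on the odd-numbered arrays and in Cy5 on the even-numbered ones, while the labelling protocol reads as if it was always in Cy3. The sample labels were used. The tissue was not sorted, so fewer cells of a type and less RNA per cell cannot be told apart.

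Spots well above background made up 47.5% to 67.9% of each array in Cy3 and 60.7% to 71.8% in Cy5, with 0 saturated spots. Precision is limited by there being 4 arrays. Array 4 had a dim area of 5530 spots, 12.6% of the array, which held 1 probe of NR4A3 and 1 of BTG2. Of 21627 probes tested by limma, 0 (0%) had a Benjamini-Hochberg adjusted p under 0.05, and 3904 (18.1%) had an unadjusted p under 0.05. Of those 3904 probes 57.8% were higher in pregnant gilts. Among the 2555 probes at that threshold with median centring in place of loess the share was 82.2%, and among the 1012 with the dyes as the protocol reads it was 40.1%. Hormone cell markers were strong in all 8 gilts: over 9 measured genes the mean log2 level was 13.98 to 14.98 in pregnant and 14.49 to 14.82 in cyclic gilts. Single hormone cell genes differed more: PRL (prolactin) had a log2 ratio of -0.89 ± 0.83 (n = 4), POU1F1, a pituitary lineage factor, had 0.46 ± 0.23 (n = 4) and FSHB, a gonadotropin subunit, had -1.91 ± 1.52 (n = 3), with limma adjusted p of 0.235, 0.235 and 0.279. Their part in the ratios of the 5 genes was not tested.

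After loess normalisation, FOS was lower in the pregnant gilt on each of the 4 arrays. Its probe A_72_P441284 (NM_001123113) had normalised log2 levels of 7.85, 8.54, 7.80 and 8.26 in the pregnant gilts of arrays 1 to 4, against 9.61, 9.15, 9.82 and 8.74 in the cyclic gilts of the same arrays. The highest pregnant gilt lay below the lowest cyclic gilt. The means were 8.11 ± 0.35 in pregnant and 9.33 ± 0.48 in cyclic gilts (SD, n = 4 each). On the 4 arrays the log2 ratio was -1.76, -0.60, -2.02 and -0.48, so FOS was 3.39-fold, 1.52-fold, 4.05-fold and 1.40-fold lower in the pregnant gilt. The mean log2 ratio was -1.22 ± 0.79 (SD, n = 4), which is 2.32-fold lower with pregnancy. FOS was the only one of the 10 probes whose levels did not overlap between the groups, a pattern shown by 711 of the 21627 tested probes (3.29%).

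The size of the FOS ratio on arrays 2 and 4, and its sign on array 4, depended on dye normalisation. The median spot signals as scanned were 134, 648, 176 and 251 in the pregnant gilts, against 1409.5, 369, 1104.5 and 172 in the cyclic gilts, with local backgrounds of 29 to 37. On arrays 2 and 4 the pregnant channel was thus the brighter one before normalisation. For the median probe Cy5 was brighter than Cy3 by 1.88-fold on array 2 and 1.38-fold on array 4. As scanned, the log2 ratio of FOS on array 4 was 0.55, and the median log2 of Cy5 over Cy3 there was 0.47. Scaled by that median alone, FOS would be slightly higher in the pregnant gilt of array 4. With median centring of each array in place of loess, the log2 ratio of FOS was -2.19, -0.19, -2.08 and -0.06, close to 0 on arrays 2 and 4. The authors' deposited table, whose values follow the processed signals of the scanner files, gives -2.15, -0.79, -2.51 and -0.84 for FOS, negative on the same 4 arrays.

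JUN, the AP-1 partner of FOS, showed a small ratio that differed in sign between arrays. Probe A_72_P178031 (NM_213880) had log2 levels of 14.30, 13.72, 13.48 and 14.52 in pregnant gilts, against 13.68, 13.31, 13.55 and 14.36 in cyclic gilts. The groups overlapped over most of their range. The log2 ratio was 0.62, 0.40, -0.07 and 0.17 on arrays 1 to 4, with a mean of 0.28 ± 0.30 (SD, n = 4), 1.21-fold higher in pregnant gilts and within the spread between arrays. With median centring in place of loess the ratio was -0.12, 1.14, -0.24 and 1.10, with a mean of 0.47 ± 0.75 (SD, n = 4), so that it was negative on arrays 1 and 3.

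**Figure D1:**
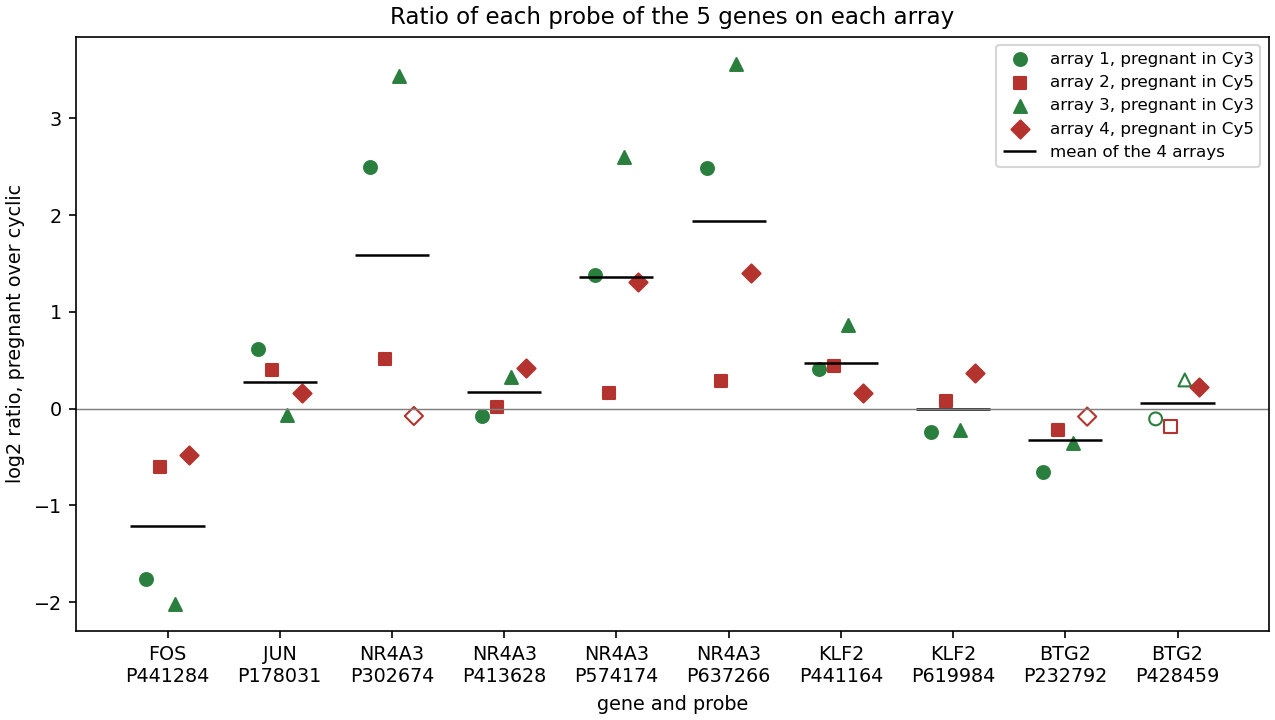
The log2 ratio of pregnant over cyclic (vertical axis) of each of the 10 probes (horizontal axis) is shown by 1 symbol per array, coloured by the dye of the pregnant gilt and hollow for a spot with an outlier flag or in the dim area, with a bar at the mean of the 4 arrays. FOS lies below 0 on 4 arrays, probe A_72_P637266 of NR4A3 lies above 0 on 4 arrays from 0.29 to 3.56, and the JUN, KLF2 and BTG2 probes lie within 1 unit of 0.

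NR4A3 was higher in the pregnant gilt on the 4 arrays by the probe that represents it, by 1.22-fold to 11.8-fold. Probe A_72_P637266 (NM_214247) had log2 levels of 10.04, 8.05, 11.89 and 11.48 in pregnant gilts, against 7.56, 7.76, 8.32 and 10.08 in cyclic gilts. The cyclic gilt of array 4 lay above the pregnant gilts of arrays 1 and 2, so the groups overlapped although each pregnant gilt exceeded its partner. The log2 ratio was 2.49, 0.29, 3.56 and 1.40, that is 5.61-fold, 1.22-fold, 11.8-fold and 2.64-fold higher, with a mean of 1.94 ± 1.41 (SD, n = 4) or 3.82-fold. As scanned, its signals were 736, 404, 3581 and 2821 in pregnant gilts, against 286, 122, 364 and 427 in cyclic gilts, so that the pregnant channel was the brighter one on the 4 arrays before normalisation too. The authors' deposited table gives 2.84, 0.49, 3.72 and 1.54 for this probe.

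The other 3 probes of NR4A3 gave ratios of different size. Probe A_72_P574174 had log2 levels of 8.31, 7.16, 9.82 and 9.83 in pregnant gilts, against 6.92, 6.99, 7.23 and 8.51 in cyclic gilts. Its log2 ratios of 1.39, 0.17, 2.60 and 1.31, with a mean of 1.36 ± 0.99 (SD, n = 4), were positive on the 4 arrays and smallest on array 2, as with the first probe. Probe A_72_P302674 had 2.50, 0.51 and 3.43 on arrays 1 to 3, and -0.08 on array 4. On that array it lay in the dim area and was not well above background in either channel, so it was left out of the fit. Probe A_72_P413628 did not follow the others, with -0.07, 0.01, 0.33 and 0.42 and a mean of 0.17 ± 0.24 (SD, n = 4). Its signals as scanned were 102 to 180 in pregnant gilts and 52 to 256 in cyclic gilts. Where in the transcript each probe binds was not analysed here.

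KLF2 was slightly higher in the pregnant gilt on the 4 arrays by 1 of its 2 probes. Probe A_72_P441164 (NM_001134351) had log2 levels of 10.37, 10.53, 10.90 and 11.23 in pregnant gilts, against 9.95, 10.09, 10.03 and 11.07 in cyclic gilts. The cyclic gilt of array 4 lay above 3 of the 4 pregnant gilts, and the groups overlapped. The log2 ratio was 0.41, 0.44, 0.86 and 0.16, with a mean of 0.47 ± 0.29 (SD, n = 4), 1.39-fold higher in pregnant gilts. With median centring in place of loess the ratio on array 1 was -0.09, so its sign there depended on the normalisation. The second probe, A_72_P619984, gave -0.24, 0.08, -0.23 and 0.37, with a mean of -0.00 ± 0.29 (SD, n = 4). That probe was dim, at 42 to 122 in pregnant and 47.5 to 102 in cyclic gilts as scanned, against local backgrounds of 32 to 42.

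BTG2 was slightly lower in the pregnant gilt on the 4 arrays by 1 probe and mixed by the other. Probe A_72_P232792 (NM_001097505) had log2 levels of 11.18, 11.37, 11.01 and 7.50 in pregnant gilts, against 11.83, 11.59, 11.36 and 7.58 in cyclic gilts. On array 4 both channels of this spot were in the dim area, which sets both values of that array apart from the other 3. The log2 ratio was -0.65, -0.22, -0.36 and -0.08, with a mean of -0.33 ± 0.24 (SD, n = 4), which is 1.25-fold lower with pregnancy. With median centring in place of loess it was -1.21, 0.35, -0.43 and 0.15, so the sign on arrays 2 and 4 turned with the normalisation. The other probe, A_72_P428459, carried an outlier flag on arrays 1 to 3 and was left out of the fit. Its log2 ratios were -0.11, -0.19, 0.30 and 0.23, with a mean of 0.06 ± 0.24 (SD, n = 4), so the probes of BTG2 did not share a direction.

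**Figure D2:**
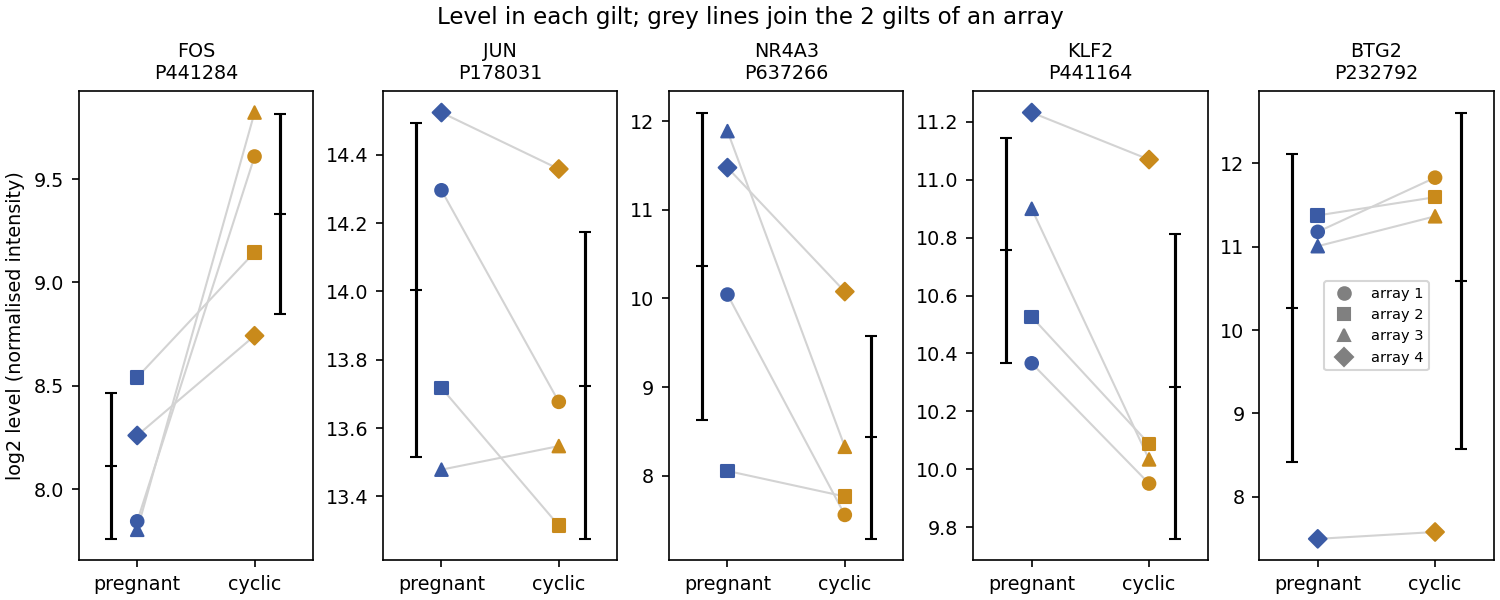
Normalised log2 level (vertical axis) of each gilt, pregnant left and cyclic right, in 1 panel per gene for its representative probe (the tested probe of highest mean intensity), with grey lines joining the 2 gilts of an array. The FOS groups do not overlap, the lines of NR4A3 differ in slope, and both gilts of array 4 stand apart for BTG2, at 7.50 and 7.58.

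The spread between gilts was wide for NR4A3 by the probe that represents it. Among pregnant gilts the SD of its log2 level (A_72_P637266) was 1.73, larger than that of 98.6% of tested probes, and among cyclic gilts it was 1.14, larger than that of 97.2%. The SD of probe A_72_P574174 was 1.30 in pregnant and 0.74 in cyclic gilts, above 97.7% and 94.2% of probes. That of A_72_P413628 was 0.32 and 0.27, above 61.3% and 52.5%, so this probe did not show the wide spread. For FOS the SD exceeded that of 67.8% of probes in pregnant and 84.6% in cyclic gilts. The median SD over all tested probes was 0.27 in pregnant and 0.26 in cyclic gilts.

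The ratios of FOS and NR4A3 differed between the dye orientations. With the pregnant gilt in Cy3, the mean log2 ratio of FOS was -1.89, and with the pregnant gilt in Cy5 it was -0.54. For NR4A3 (A_72_P637266) the means were 3.03 and 0.84 in the same order. Both genes kept their sign in both orientations, and the log2 ratio was larger in size with pregnant RNA in Cy3. For KLF2 (A_72_P441164) the means were 0.64 and 0.30, and for BTG2 (A_72_P232792) they were -0.50 and -0.15. JUN had 0.28 in both. These sizes depended on the normalisation. With median centring in place of loess and in the same order of dyes, FOS had -2.13 and -0.13, NR4A3 2.77 and 1.32, and JUN -0.18 and 1.12. Expressed as a dye effect of the fit, 0.712% of tested probes had a larger absolute value than FOS and 0.106% a larger one than NR4A3. Each orientation holds 2 arrays with their own gilts, so a dye effect and a difference between these animals cannot be told apart.

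**Figure D3:**
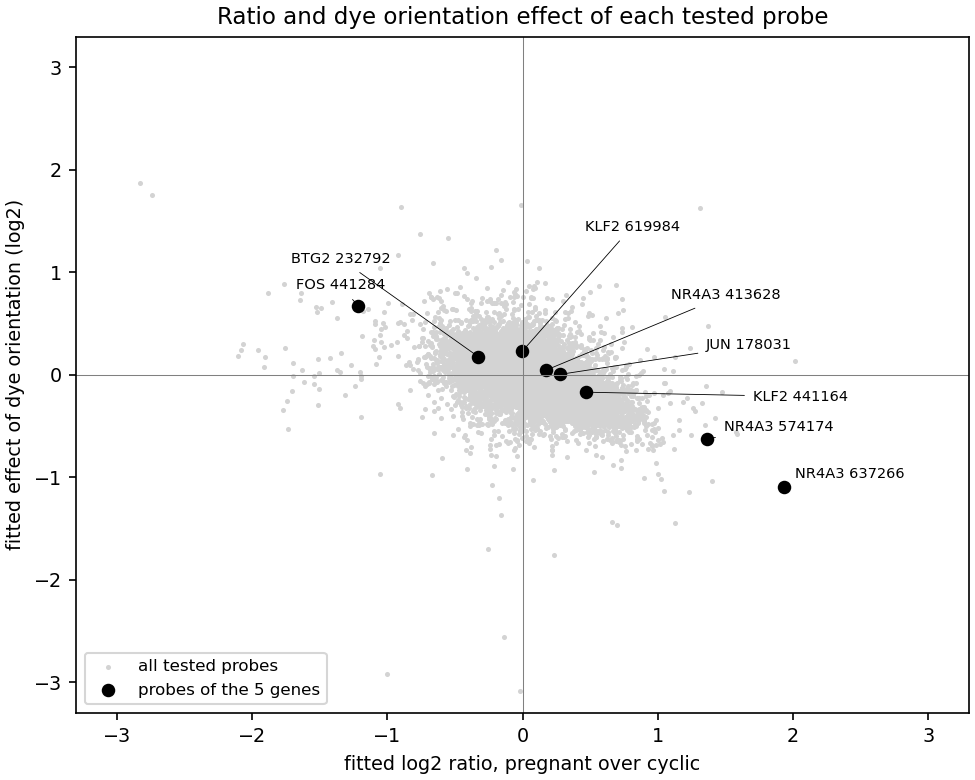
Fitted log2 ratio of pregnant over cyclic (horizontal axis) and fitted log2 effect of dye orientation (vertical axis) of each tested probe, with the 8 tested probes of the 5 genes in black. FOS lies at -1.22 and 0.67 and probe A_72_P637266 of NR4A3 at 1.94 and -1.09, both towards the edge of the cloud of probes, while the JUN, KLF2 and BTG2 probes lie within it.

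After the mean of each group was taken out, the levels of NR4A3 and KLF2 varied together over the 8 gilts, with r = 0.77 (Pearson) and rho = 0.67 (Spearman), and r = 0.65 over the 6 gilts without array 4. With the mean of each dye taken out too, r was 0.77. FOS and NR4A3 ran in opposite directions, with r = -0.63 and rho = -0.64 (n = 8 gilts), and r = -0.61 without array 4. Their dye effects were of opposite sign (0.67 and -1.09), and with the mean of each dye taken out too, r was -0.67. JUN and KLF2 had r = 0.59 (rho = 0.17) over the 8 gilts but -0.89 over the 6 gilts without array 4. BTG2, with its array 4 spot in the dim area, had r = -0.68 with NR4A3, -0.93 with KLF2 and -0.81 with JUN. Without array 4 these were -0.76, -0.51 and 0.25. FOS had r = -0.30 with JUN, -0.52 with KLF2 and 0.39 with BTG2. Without array 4 these 3 were 0.07, -0.29 and 0.28. With the mean of each dye taken out too, over the 8 gilts with array 4 included, they were -0.79, -0.85 and 0.87. JUN and NR4A3 had r = 0.42, and -0.24 without array 4. The 2 gilts of an array share a hybridisation and a spot, and the 4 gilts of a dye share that dye, so these values are descriptions of 4 arrays and not of 8 independent samples.

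Of 1585 named genes detected in both groups on the 4 arrays, those with levels most like FOS by the same measure were AHCY (r = 0.92), GH1 (r = 0.91) and RAB28 (r = 0.91). For each member the 3 genes of highest r out of 1585 are named, so a high r follows in part from this choice. AHCY encodes a hydrolase of the methionine cycle, GH1 growth hormone and RAB28 a small GTPase. The levels of FOS also differed by dye, and with the mean of each dye taken out r was 0.65, 0.43 and 0.45 for these 3 genes. For NR4A3 they were RHOT2 (r = 0.96), a mitochondrial GTPase, PPP1R14A (r = 0.96), an inhibitor of myosin phosphatase, and MYL6 (r = 0.95), a myosin light chain. The closest to JUN were SEC63 (r = 0.97), ERP44 (r = 0.96) and GPNMB (r = 0.96), the first a protein of the endoplasmic reticulum translocon and the second a chaperone of the early secretory pathway. The chemokine gene CCL24 (r = 1.00), UIMC1 (r = 0.99) and MAOB (r = 0.99), a monoamine oxidase, were closest to KLF2. Without array 4 their r was 0.97, 0.97 and 0.96 over 6 gilts. For BTG2 they were CYTH2, UFD1 and SELENOK (r = 1.00 each), whose probes lie in the dim area of array 4, and without that array r was 0.93, 0.88 and 0.85 over 6 gilts.

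The remaining immediate early genes were divided between both directions. Of 77 listed genes 28 had a named probe and 24 were tested, of which 11 had a positive and 13 a negative log2 ratio, with a median of -0.01. Among all 1739 other tested named genes 756 were positive and 983 negative, with a median of -0.02. By limma 0 of the 24 had an adjusted p under 0.05, the smallest being 0.259, and 2 had an unadjusted p under 0.05, against 13.8% of all 1744 named genes. Those 2 were GADD45A, a stress-induced growth arrest gene, at 0.33 ± 0.30, and NFKBIA, the inhibitor of NF-kappaB, at 0.47 ± 0.51 (SD, n = 4 each).

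GADD45A had log2 ratios of 0.28, 0.26, 0.02 and 0.74 on arrays 1 to 4 and was positive on each. NFKBIA had 0.69, 0.69, 0.80 and -0.29, with its array 4 spot in the dim area. The fitted ratios of its 2 tested probes were 0.09 and 0.47. Among the next smallest p-values were those of ODC1, which makes polyamines, at -0.32 ± 0.40 (n = 4), of KLF6 at -0.30 ± 0.39 (n = 4) and of BTG3, an antiproliferative relative of BTG2, at -0.27 ± 0.27 (n = 3). ID2, an inhibitor of helix-loop-helix factors, had -0.26 ± 0.50 (n = 3), and BTG1 had -0.24 ± 0.48 (n = 4). Of these 5 genes only BTG3 had the same sign on each of its arrays.

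**Figure D4:**
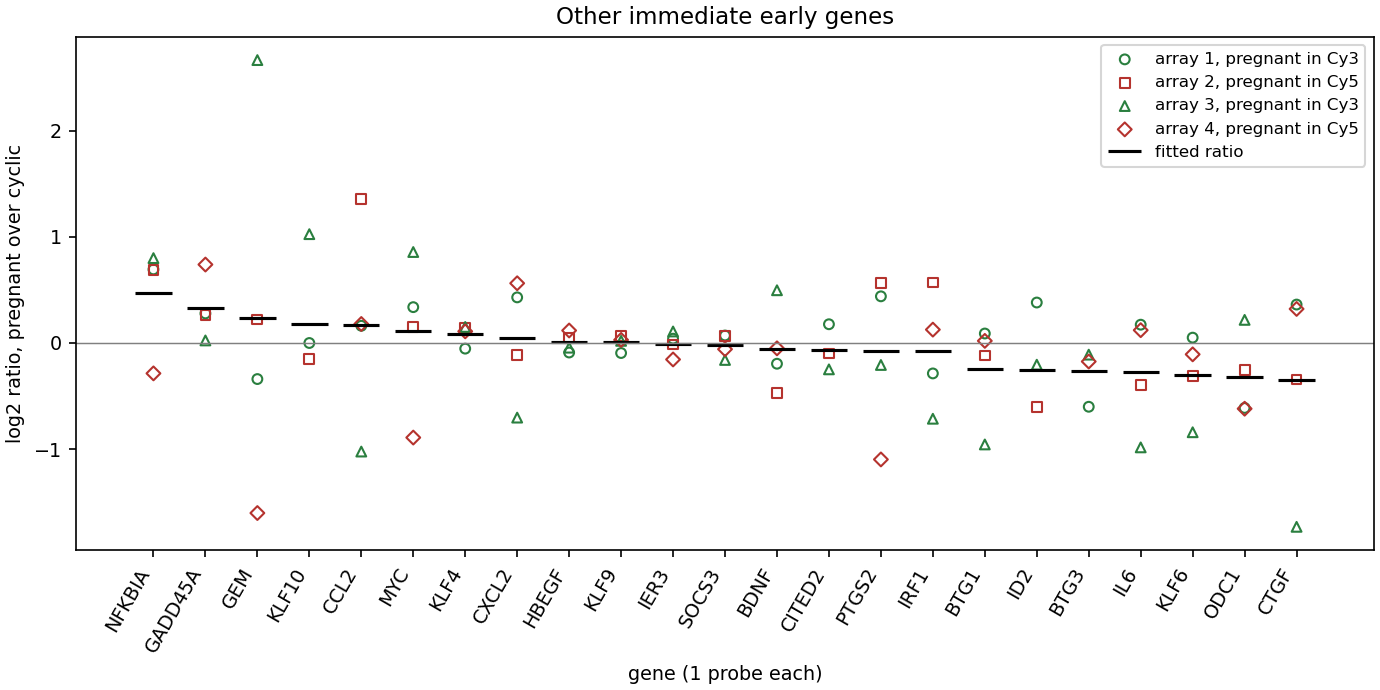
The log2 ratio of pregnant over cyclic (vertical axis) of 23 of the 24 other tested immediate early genes (horizontal axis), with 1 symbol per array and a bar at the fitted ratio. Fitted ratios run from -0.35 to 0.47, around a median of -0.01 over the 24, and GEM has the widest spread over arrays, from -1.60 to 2.67.

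Among genes of the same families, no FOS, JUN or NR4A relative had a named probe, and the EGR2 probe was not well above background on any array. In the Krüppel-like family 12 genes other than KLF2 were tested, of which 7 had positive and 5 negative ratios. KLF11, a repressor induced by TGF-beta, had the lowest at -0.84 ± 0.51 (SD, n = 4), negative on the 4 arrays, with a limma adjusted p of 0.235. The highest was KLF17 at 0.37 ± 0.66. The other Krüppel-like genes were KLF5 at 0.18, KLF10 at 0.18, KLF3 at 0.14, KLF12 at 0.12, KLF4 at 0.09, KLF9 at 0.01, KLF16 at -0.03, KLF13 at -0.05 and KLF7 at -0.08.

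Of 50 listed receptors, kinases and nuclear activators that act upstream of immediate early genes, 16 were tested. Their log2 ratio was positive in 6 and negative in 10, with a median of -0.05. By limma 0 had an adjusted p under 0.05, the smallest being 0.235, and 3 (18.8%) had an unadjusted p under 0.05, against 13.8% of all named genes and 18.1% of all probes. MAP2K1, the kinase that activates ERK, had -0.91, -0.38, -0.99 and 0.18 on arrays 1 to 4, a ratio of -0.53 ± 0.54 (SD, n = 4). TRHR, the receptor of thyrotropin-releasing hormone, had 0.30 ± 0.28, though on array 4 its spot was in the dim area. EGFR, the receptor of epidermal growth factor, had 0.22 ± 0.20 (SD, n = 4 each). GNRHR, the receptor of gonadotropin-releasing hormone, had 0.10, 0.55, 0.98 and 0.09, a ratio of 0.43 ± 0.43 (SD, n = 4). The next were MEF2A at -0.21, PRKAR1A at -0.28, PPP3CA at -0.17 and MAPK12 at -0.19, of which MEF2A and PPP3CA also had their array 4 spot in the dim area.

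Markers of other cells and of tissue handling were set beside these values. The 4 tested endothelial markers of 11 listed, CDH5, ENG, NOS3 and PECAM1, had a mean log2 level of 9.00 to 9.43 in pregnant and 9.23 to 9.56 in cyclic gilts, and it was lower in the pregnant gilt on each of the 4 arrays, with differences from -0.27 to -0.02. Of these markers 3 had a negative ratio, among them ENG, a TGF-beta co-receptor, at -0.35 ± 0.35 (n = 4), negative on the 4 arrays, with an unadjusted limma p under 0.05 and an adjusted p of 0.235. The 8 tested heat shock and hypoxia genes of 13 listed had 10.08 to 10.39 in pregnant and 10.07 to 10.36 in cyclic gilts, and 6 of them had a positive ratio. The other 2 were LDHA, which makes lactate, at -0.45 ± 0.18 (n = 4), with an unadjusted limma p under 0.05 and an adjusted p of 0.235, and HSP90AA1, a chaperone, at -0.22 ± 0.05 (n = 3), each negative on all its arrays by the probe that represents it. The 5 tested probes of HSP90AA1 did not share a sign, with fitted ratios from -0.32 to 0.60. The 4 tested stromal markers of 9 had 10.09 to 10.43 in pregnant and 10.11 to 10.79 in cyclic gilts, and the mean was lower in the pregnant gilt on each of the 4 arrays, with differences from -0.45 to -0.01. Of these 4 markers, SPARC at -0.62 (n = 3), ACTA2 at -0.36 (n = 4) and FBN1 at -0.30 (n = 4) had an unadjusted limma p under 0.05. Their adjusted p was 0.238, 0.238 and 0.244. The array 4 spot of ACTA2 was in the dim area, and SPARC had no value on array 1. Of all named genes 13.8% had an unadjusted limma p under 0.05. The remaining marker, DCN, went the other way, at 0.22 ± 0.54 (n = 4). The 3 tested probes of FBN1 ran from -0.30 to 0.11. Myeloid markers, with 6 of 9 tested, had 8.08 to 8.81 in pregnant and 8.06 to 8.67 in cyclic gilts, and were lower in the pregnant gilt on 2 arrays. Lymphocyte markers had 3 of 9 tested, folliculostellate markers 3 of 7 and neural markers 3 of 9, and their means were lower in the pregnant gilt on 2, 3 and 2 arrays, while 0 of 5 erythrocyte markers were tested. Among the lymphocyte markers CCL5 had 0.32 ± 0.28 (n = 4), positive on the 4 arrays, with an unadjusted limma p under 0.05 and an adjusted p of 0.267. Its 2 tested probes had fitted ratios of -0.01 and 0.32. The part of these markers in the ratios of the 5 genes was not tested.

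The fitted ratios were recomputed under other processing with the dyes as the sample labels give them. The log2 ratio of FOS ran from -1.57 to -1.13 over 12 alternatives and that of NR4A3 (A_72_P637266) from 1.66 to 2.21. KLF2 (A_72_P441164) ran from 0.36 to 0.62, JUN from 0.11 to 0.47 and BTG2 (A_72_P232792) from -0.40 to -0.25. Dropping the dye effect, keeping flagged spots, fitting the channels separately and testing dim probes returned the main value for each of these probes. These settings could not move them, since the dyes were balanced and the spots unflagged. Leaving out the dim area changed only BTG2. The ranges therefore come from the remaining settings. With the dyes as the labelling protocol reads, pregnant RNA in Cy3 on every array, FOS had -0.67, NR4A3 1.09, KLF2 0.17, JUN -0.00 and BTG2 -0.18. Under that reading the arrays would not share a sign, since FOS would be lower in the pregnant gilt on arrays 1 and 3 and higher on arrays 2 and 4, and NR4A3 the reverse.

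**Figure D5:**
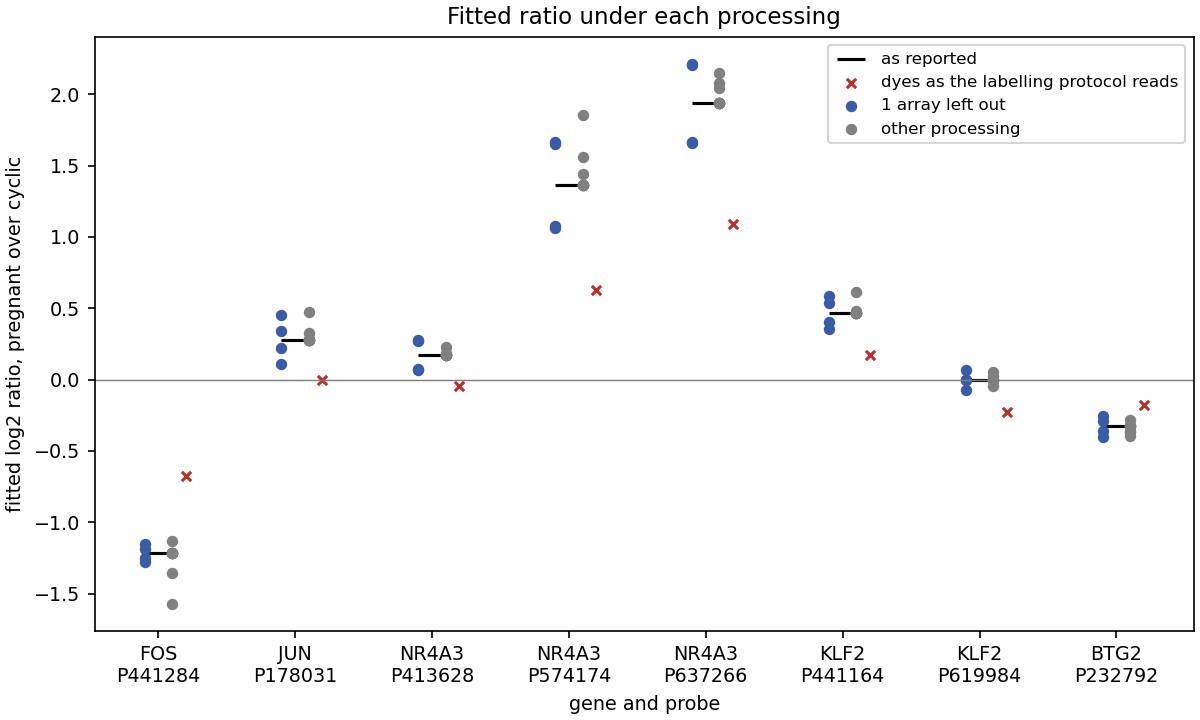
Fitted log2 ratio of pregnant over cyclic (vertical axis) of each tested probe of the 5 genes (horizontal axis) as reported, with 1 array left out, under other processing, and with the dyes as the labelling protocol reads. FOS lies at -0.67 or lower and probe A_72_P637266 of NR4A3 at 1.09 or higher in each setting drawn, while probe A_72_P619984 of KLF2 lies on both sides of 0.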

How the data were processed

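Levels were measured on 4 two-colour Agilent arrays, and the members and gene lists were chosen with earlier results of these data known. The deposited scanner files hold, per the file headers, median spot and background intensity (software Agilent Feature Extraction 10.7.3.1), its processed signals, and its log10 ratio of Cy5 over Cy3, which was not used. The deposited value table holds log2 ratios: set against the processed signals of the arrays its slopes were -1, 1, -1 and 1, so it follows the dyes of the sample labels. The medians of its columns, 0.07, -0.08, -0.18 and -0.17, show that it is not centred. Which software wrote it was not stated.

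Median signals were corrected by normexp (offset 50) and normalised by loess within each array, with weight 0 for control spots. Spots flagged as outliers took part in these steps and were then left out of the fit. The ratios and levels given per array for the members keep flagged spots. The plan named mean signals, which the files used here do not hold. Testing required a probe to be well above background on 4 arrays in at least 1 group and unflagged on at least 3: 23913 passed the first condition, and 21627 passed both, 1747 of them on 3 arrays. Of the 10 probes of the members 8 passed. Models with a group and a dye effect were fitted with limma (version 3.58.1, under R 4.3.3), with Benjamini-Hochberg adjustment over all tested probes. P-values measure the spread between pairs of the same dye orientation, moderated by limma over all probes. For a probe with 3 arrays, 1 orientation holds only 1 array, so this spread comes from the 2 arrays of the other. A difference between the orientations goes into the dye effect. The p-values therefore do not cover the full spread between the 4 pairs of gilts that the SD over arrays shows. Levels per gilt are log2 channel intensities after Aquantile scaling. A listed gene is represented by its tested probe of highest mean intensity. Values after ± are the SD over arrays, beside the fitted ratio. For each list the text names the 8 genes of smallest p and tested relatives of the members; for markers, up to 3. Of these, 1 gene is not reported here, though it is in the counts. The dim area joins tiles of 10 rows by 5 columns in which at least 25% of spots of signal 200 or more lost at least 2 log2 units against the other arrays. The fit was also run on simulated data, with independent noise of each probe's spread within a dye orientation. Such data cannot show how the p-values behave where gilts of different orientations differ. Leaving out the dim area, and taking the dye out of correlations, were chosen after seeing the data. Other alternatives changed background, normalisation, flags, dye effect, dye direction, model, filter and arrays. No sequence is shown, since probe sequences were not used here.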

Additional observations from a re-analysis of the deposited data

Results flagged for a closer look

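Among 43 sets of 4 values, 4 held a value that stood apart from the other 3 by Dixon's criterion, where chance gives about 1 in 20, or 2.15. All of them lie on array 4. The log2 level of BTG2 (A_72_P232792) on that array was 7.50 in the pregnant gilt, against 11.01 to 11.37 in the other pregnant gilts, and 7.58 in the cyclic gilt, against 11.36 to 11.83 in the other cyclic gilts. Both come from 1 spot in the dim area. The log2 ratio of NFKBIA on array 4 was -0.29, beside 0.69, 0.69 and 0.80 on the others, and that spot lies in the dim area too. For KLF2 (A_72_P441164) the cyclic gilt of array 4 had a log2 level of 11.07, against 9.95 to 10.09 in the other cyclic gilts, and this spot lies outside the dim area.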

How the results depend on the processing

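Of 104 values of the members' probes under 13 alternatives, 103 moved by less than the SD over arrays. The exception was KLF2 (A_72_P441164), at 0.17 with the dyes as the protocol reads. The 104 include settings on dye effect, flags, channels and filter that could not move a value. The SD is also wide, at 0.79 for FOS and 1.41 for NR4A3 (A_72_P637266). By it, FOS at -0.67 and NR4A3 at 1.09 under the protocol's reading counted as within the SD. The count of 103 is therefore no measure of stability. The sign changed in 5 of the 104. Of these, 3 were the dim KLF2 probe near 0 and 2, under the protocol's reading, were JUN at -0.00 and NR4A3 (A_72_P413628) at -0.04. The count of probes at an adjusted p under 0.05 was 0 as reported, 1 without background correction, 2 without a dye effect and 1039 in the separate-channel fit. It ran from 0 to 3381 with 1 array left out, the highest without array 1 and 4 without array 3. At an unadjusted p under 0.05 the count was 2555 with median centring, 1012 under the protocol's reading, and 1039 (without array 2) to 6906 (without array 1) with 1 array left out; without array 4 it was 1793. Of other immediate early genes at an unadjusted p under 0.05 there were 0 with processed signals, 1 without a dye effect, 1 under the protocol's reading, and 1 to 5 with 1 array left out. At an adjusted p under 0.05 there were 0 to 4. The 4, by limma without array 1, were CTGF (-0.87), BTG1 (-0.50), KLF6 (-0.53) and IL6 (-0.56). On array 3 these genes had log2 ratios of -1.73, -0.96, -0.84 and -0.98, each the lowest of its arrays. With 1 array left out, 1 dye orientation holds only 1 array, which the dye effect fits exactly. The p-values of such fits rest on the spread of the 2 arrays of the other orientation, so these counts rest on little replication. Upstream genes numbered 1 under the protocol's reading and 1 to 4 with 1 array left out at an unadjusted p, and 0 to 1 at an adjusted p, the 1 being GNRHR (0.65) without array 1. The causes were not tested. The ratios pair the 2 gilts of each array, so the fit is itself the paired analysis.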

Other observations

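Several immediate early genes outside the naming rule, chosen after their values were seen, differed between arrays more than they differed from 0. GEM, a small GTPase, had log2 ratios of pregnant over cyclic of -0.34, 0.22, 2.67 and -1.60 on arrays 1 to 4. CTGF, a matricellular protein gene induced by mechanical tension and TGF-beta, had 0.36, -0.35, -1.73 and 0.32. The chemokine gene CCL2 had 0.16, 1.35, -1.02 and 0.18, and PTGS2, the inducible prostaglandin synthase, had 0.44, 0.56, -0.21 and -1.10. None of these 4 genes had an adjusted p under 0.05 by limma in the fit of 4 arrays.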
